A study of Mus musculus with 6 samples.

Results

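The genes described here are the integrin subunits and 15 genes of the focal adhesion, the protein assembly that ties integrins to actin. Members were taken by symbol from the deposited tables, as every Itga gene, Itgb1 to Itgb8, and Tln1, Tln2, Vcl, Ilk, Parva, Parvb, Pxn, Ptk2, Fermt1, Fermt2, Fermt3, Zyx, Lims1, Bcar1 and Src. This gave 41 of 22958 entries, 26 integrin subunits and 15 focal adhesion genes. Of these, 34 had enough reads to be tested.

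Brain endothelial cells were sorted on CD31 (PECAM1) from C57BL/6 x 129/Sv mouse embryos at E11.5 (midgestation), and their polyadenylated RNA was sequenced. The mothers of both groups had received tamoxifen at E9.5. The 3 control libraries carry the label Cdhrs5CreERT2:R26Axin1IL-/- and wildtype Axin1 expression, and the 3 libraries of the other group, called Axin1 libraries here, carry Cdhrs5CreERT2:R26Axin1IL+/- and overexpress Axin1. A tamoxifen-inducible Cre is thus named in the genotype of both groups, and the labels do not say which embryos or litters were pooled. Each p-value therefore measures the spread between these libraries only. Axin1 is a scaffold protein that restrains Wnt signalling by promoting the destruction of beta-catenin, and the series asks how endothelial expression changes when it is raised.

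Integrins are transmembrane receptors built from 1 alpha and 1 beta subunit, and the pair decides which matrix protein is bound. In endothelium, pairs with the Itgb1 subunit hold the cell to laminin, collagen and fibronectin of the vessel's basement membrane. Talins and kindlins bind the beta tail and switch the receptor on, the ILK, PINCH and parvin proteins and vinculin couple it to actin, and FAK, paxillin, p130Cas and Src carry the signal onward.

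Libraries held 10772492 to 14234409 reads assigned to genes, of which the members took 0.417% to 0.5796%. Axin1 itself read 25.03, 17.6 and 20.8 CPM (normalised counts, the reads of a gene scaled to library size) in controls 1, 2 and 3 and 79.8, 62.2 and 66.2 CPM in Axin1 libraries 1, 2 and 3, so the labels held. Transgene and endogenous transcripts are counted together. Pecam1, the sorting marker, lay between 1182 and 1455 CPM in all libraries. All 12 endothelial markers listed had reads in every library, with a summed level of 8331 to 8776 CPM in the controls and 8280 to 9474 CPM in the Axin1 libraries. Within that sum, 2 of the 12 had groups without overlap, against 23.8% of all tested genes, and 0 passed the test. Cdh5 (VE-cadherin) read 432, 502 and 846 CPM in controls 1, 2 and 3 and 981, 945 and 924 CPM in Axin1 libraries 1, 2 and 3, and Esam was lower, at 1206 to 1321 and 925 to 1083 CPM. Cldn5 (claudin 5) read 44.01, 48.2 and 196 CPM and 186, 275 and 242 CPM, so that control 3 lay nearer to the Axin1 libraries than to controls 1 and 2 for both Cdh5 and Cldn5. Eng did the same, at 183, 132 and 324 CPM and 317, 324 and 311 CPM. Not all markers did. Control 3 was the highest library for Erg, at 101 CPM against 55.3 to 67.4 CPM in the Axin1 libraries. It was the lowest for Emcn (777 CPM against 902 to 1322 CPM) and Flt1 (177 CPM against 213 to 266 CPM). Over all 12661 tested genes edgeR's quasi-likelihood test called 107, or 0.845%, at an adjusted p of 0.05. Of all tested genes 0.355% were called higher and 0.490% lower in the Axin1 libraries.

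None of the 34 tested members passed that threshold. The smallest adjusted p was 0.0575, for Itga4, and 4 members had an adjusted p under 0.1, as did 2.78% of all tested genes. Before adjustment, 7 members had a p under 0.05, 4 higher and 3 lower in the Axin1 libraries, which is 20.6% of the members against 17.2% of all tested genes (9.06% higher and 8.14% lower). The 2 groups did not overlap for 10 members, 7 higher and 3 lower, or 29.4% against 23.8% of all tested genes (11.3% higher and 12.4% lower). Both shares lay close to those of the whole transcriptome. DESeq2 called 5 members (14.7%, against 5.69% of all genes), 3 higher and 2 lower. Without control 3 edgeR called 3 of 35 (Itga4, Itga5 and Pxn), against 5.37% of all genes. The other 5 fits that left out 1 library called 0 members. They called between 0 and 33 genes in all, or 0.0768%, 0%, 0.256%, 0% and 0.140% without controls 1 and 2 and Axin1 libraries 1, 2 and 3. In the same order, 7 of 36, 8 of 36, 15 of 36, 6 of 36 and 8 of 35 members had an unadjusted p under 0.05. Over all genes these counts were 1570 of 13025, 1539 of 12943, 2327 of 12884, 1733 of 12855 and 1676 of 12873. Keeping genes with few reads gave 2 members of 41, against 1.11%. A block on the replicate number gave 1 of 34, against 0.829%, and a block on the title number that 4 libraries share gave 7 of 34, against 11.9%. The remaining alternatives called 0 members, where the share of all genes was 0.814% with RLE factors, 0.900% with upper-quartile factors and 0.403% without robust fitting. In limma on log2 RPKM it was 0.837% with a pseudocount of 1, 0.798% with 0.1 and 0.0225% over every entry above 0.

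**Figure D1:**
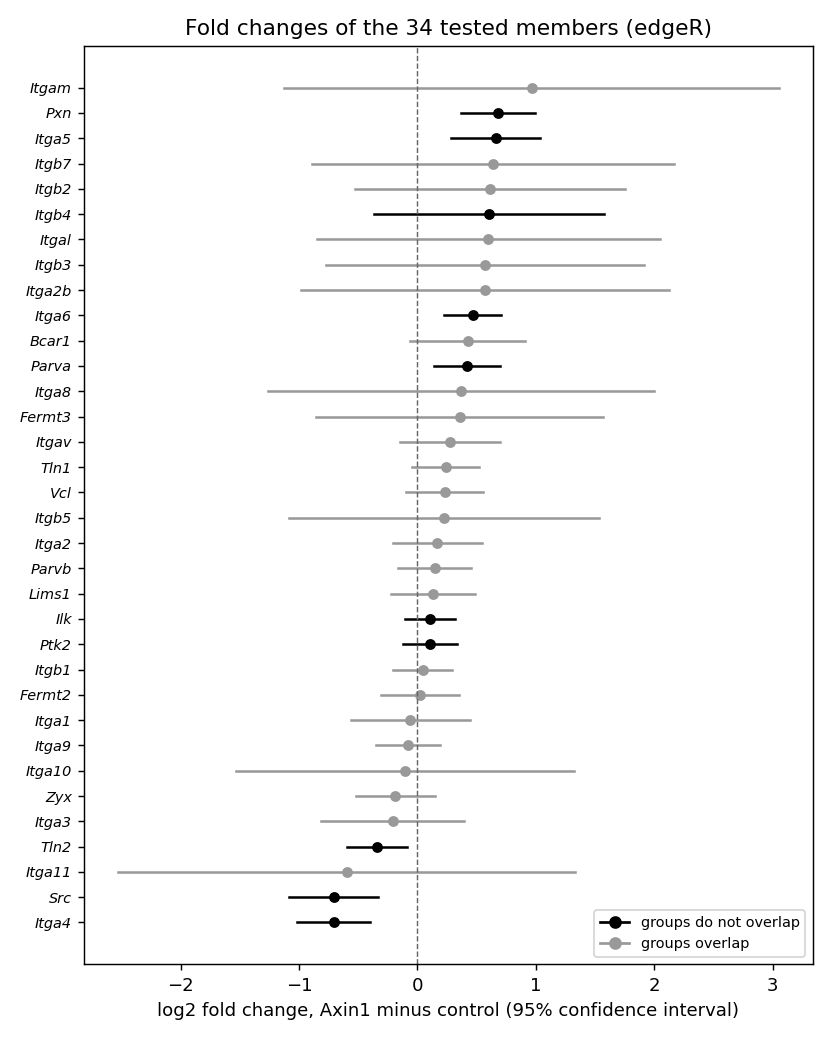
Log2 fold change (Axin1 minus control) of the 34 tested members with its 95% confidence interval from edgeR, with genes whose groups do not overlap in black and the others in grey. Itga4 and Src lie lowest at -0.71 each, and Pxn and Itga5 are the highest of the black points at 0.68 and 0.66.

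Positive fold changes were more common than negative ones, 25 against 9, with a median log2 fold change of 0.23 against 0.02 over all tested genes, of which 52.5% were positive. The count was 25 or 24 under the other scalings tried. It was 20 of 35 without Axin1 library 3, where the members' median was 0.07. That library had the highest levels of macrophage and platelet markers of all 6, given below beside the integrins of those cells, and their part in the count was not tested. In bulk RNA, a different share of cells of a type and a different amount of RNA per cell cannot be told apart.

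The levels per length, in RPKM (reads scaled to transcript length and library size), rank the subunits in the sorted RNA, to which blood cells also contribute markers (below). Itgb1, the partner of most alpha subunits, stood at 98.5 ± 10.1 RPKM in the controls (SD, n = 3) and far above the other beta subunits. Itgb3 followed at 26.1 ± 6.54, Itgb2 at 16.4 ± 2.68 and Itgb5 at 2.53 ± 0.775 RPKM, and the ranges of these 4 neighbours did not overlap among the controls. Itgb4, Itgb6, Itgb7 and Itgb8 all had means below 0.5 RPKM. Itgb6 and Itgb8, which pair with Itgav in epithelia and in neural tissue, had 12 and 34 reads in all 6 libraries together and were not tested.

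Among alpha subunits the control order was Itga5 (45.8 ± 12.02 RPKM), Itga2b (40.6 ± 9.55), Itga6 (33.8 ± 1.70), Itga1 (19.9 ± 6.96), Itga9 (17.1 ± 1.61), Itga4 (16.2 ± 1.59), Itga2 (14.9 ± 3.19), Itga3 (13.2 ± 1.61) and Itgav (4.37 ± 1.03). Only Itga6 over Itga1 and Itga3 over Itgav were steps without overlap of the control ranges among these neighbours. In the Axin1 libraries Itga4 ranked below Itga3, with overlapping ranges, and Itga5, Itga2b and Itga6 kept the first 3 places. Itgal (2.63 RPKM) and Itgam (2.33 RPKM) of leukocytes followed. Itga7, Itga8, Itga10, Itga11, Itgad, Itgae and Itgax had control means under 0.5 RPKM. Of these Itga7, Itgad, Itgae and Itgax, with Fermt1, Itgb6 and Itgb8, make up the 7 members that were not tested, with 2 to 54 reads each over all libraries. A count of 0 in 1 library allows a level of up to 0.207 to 0.276 CPM, for counting error only.

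**Figure D2:**
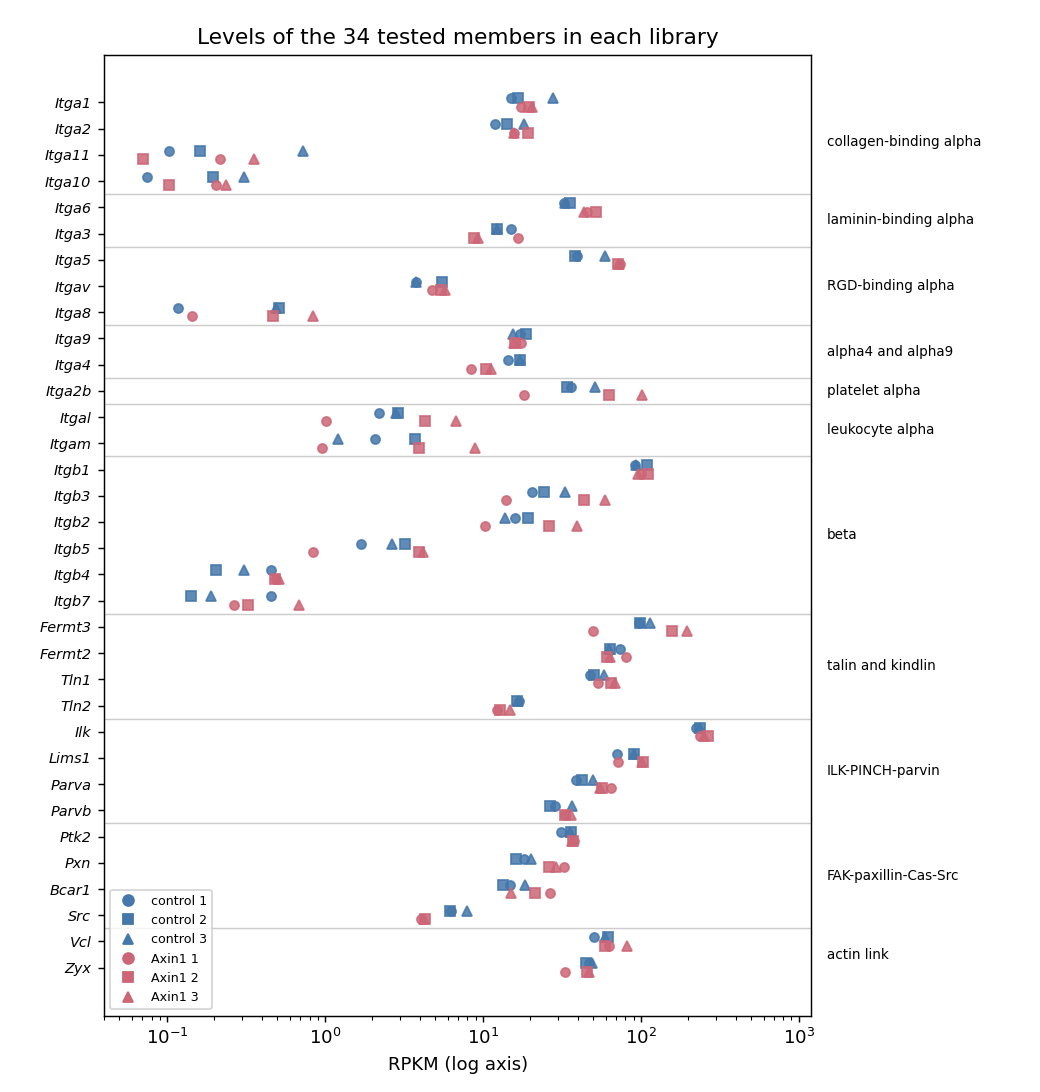
RPKM (log axis) of the 34 tested members in each of the 6 libraries, grouped by role, with 1 symbol per library, blue for controls and red for Axin1 libraries. Ilk is highest at 223 to 266 RPKM, Itgb1 lies between 92.6 and 112 RPKM, and Itgam spans 0.963 to 8.94 RPKM among the Axin1 libraries.

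Itgb1 did not separate the groups. It read 403, 467 and 389 CPM in controls 1, 2 and 3 and 428, 464 and 406 CPM in Axin1 libraries 1, 2 and 3. The log2 fold change was 0.04 (SE 0.11, 95% confidence interval -0.21 to 0.30, edgeR adjusted p 0.881). Its sign was negative without control 3 and without Axin1 library 2 (-0.0197 and -0.0114).

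Itga5 encodes the alpha subunit of the main fibronectin receptor. It read 178, 169 and 261 CPM in controls 1, 2 and 3 and 327, 309.7 and 324 CPM in Axin1 libraries 1, 2 and 3. All 3 Axin1 libraries lay above all controls, with control 3 nearest to them, as for Cdh5 and Cldn5 but not for Emcn or Flt1. The part of these markers in the Itga5 difference was not tested. The fold change was 1.58 (log2 0.66, SE 0.16, 95% confidence interval 0.29 to 1.04, edgeR adjusted p 0.106). When control 3 was left out, Itga5 had a log2 value of 0.87 and passed (edgeR adjusted p 0.00363), and in the other 5 fits without 1 library it lay between 0.54 and 0.68 with an adjusted p of 0.159 to 0.317. DESeq2 called Itga5 with an adjusted p of 0.00993.

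Itgav and Itga8 are the other subunits grouped here as RGD-binding. Itga2b, which binds RGD too but pairs with Itgb3, is described with the platelet genes. Itgav was low, at 27.7, 39.6 and 26.5 CPM in the controls and 34.3, 38.1 and 41.1 CPM in the Axin1 libraries, and the groups overlapped (log2 0.27, 95% confidence interval -0.15 to 0.69, edgeR adjusted p 0.500). Itga8 had 185 reads in all libraries together, with a log2 interval of -1.26 to 2.00.

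Itga6, the alpha subunit of laminin receptors, read 133, 142 and 129.6 CPM in controls 1, 2 and 3 and 182, 202 and 175 CPM in Axin1 libraries 1, 2 and 3. The groups did not overlap. A processed pseudogene carries a near-identical copy of part of its sequence, and the handling of reads that match both is not known here. Stretches of Ilk, Itgb2 and Itgb5 also match processed pseudogenes elsewhere, and stretches of Parva match other genes, each at 95% identity or more. The fold change of Itga6 was 1.38 (log2 0.47, SE 0.11, 95% confidence interval 0.22 to 0.71, edgeR adjusted p 0.0863, DESeq2 adjusted p 0.0167). The other laminin-binding subunit with a sizeable level, Itga3, overlapped between groups, from 60.0 to 76.0 CPM in the controls and from 42.5 to 81.6 CPM in the Axin1 libraries. Axin1 library 1 held the highest Itga3 value and libraries 2 and 3 the lowest (log2 -0.21, 95% confidence interval -0.81 to 0.39, edgeR adjusted p 0.730). Itgb4, which pairs with Itga6 in hemidesmosomes of epithelia, had 188 reads in all. Its CPM values were 2.89, 1.23 and 1.93 in the controls and 3.04, 2.96 and 3.20 in the Axin1 libraries, without overlap, and its edgeR adjusted p was 0.515.

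Itga4 went the other way. This subunit binds fibronectin and the adhesion molecule VCAM1. It read 139, 161 and 160.0 CPM in controls 1, 2 and 3 and 79.2, 96.8 and 106 CPM in Axin1 libraries 1, 2 and 3. Every Axin1 library lay below every control, and the fold change was 1.63 lower (log2 -0.71, SE 0.14, 95% confidence interval -1.02 to -0.40, edgeR adjusted p 0.0575). The adjusted p passed the threshold without control 3 (0.0375), in DESeq2 (7.54e-04) and when genes with few reads were kept (0.031). It was 0.097 to 0.229 in the other 5 fits without 1 library, with log2 fold changes from -0.80 to -0.60. Its exons share 8.04% of their bases with Cerkl on the opposite strand in the GENCODE annotation, and the strand setting of the counting is not given in the sources used here. Itga9, the closest relative of Itga4, overlapped between groups, at 108 to 132 CPM in the controls and 111 to 124 CPM in the Axin1 group (log2 -0.08, 95% confidence interval -0.35 to 0.19).

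Itga4 and Itga5, the integrin alpha genes with the lowest and the highest ratio of the Axin1 to the control mean among those whose groups did not overlap, are shown with their promoters. These run from 250 bases before to 50 after the start of the gene, from RefSeq on build GRCm38.p6. Itga4 lies on the plus strand at chr2:79255176-79255475 and Itga5 on the minus strand at chr15:103366742-103367041. Sequences are 5′ to 3′ on the strand of the gene, and capitals mark matches on either strand to the 6 motifs named next.
Itga4: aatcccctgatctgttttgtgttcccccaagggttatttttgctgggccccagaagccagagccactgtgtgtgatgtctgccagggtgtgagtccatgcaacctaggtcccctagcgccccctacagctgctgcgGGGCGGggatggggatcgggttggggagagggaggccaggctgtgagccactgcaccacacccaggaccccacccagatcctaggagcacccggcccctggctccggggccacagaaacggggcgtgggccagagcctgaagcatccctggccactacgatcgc
Itga5: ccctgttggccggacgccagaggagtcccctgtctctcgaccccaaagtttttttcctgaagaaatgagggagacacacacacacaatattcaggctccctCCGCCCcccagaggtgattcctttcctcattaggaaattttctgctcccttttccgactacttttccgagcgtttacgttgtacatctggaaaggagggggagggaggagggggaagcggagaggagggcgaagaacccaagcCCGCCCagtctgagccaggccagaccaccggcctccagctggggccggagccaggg

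The motifs were a TCF/LEF core, CTTTGAT, the site of the factors that work with beta-catenin, an ETS core, CCGGAAG, an AP-1 site, TGANTCA, a TEAD core, GGAATG, an SP/KLF core, GGGCGG, and the CArG box of serum response factor, each on both strands. In both promoters the capitals are SP/KLF cores, 1 in Itga4 and 2 in Itga5. That core occurs in 35.7% of 32851 promoters of the same length and in 19 of 35 promoter entries of the 29 members with one. The TCF/LEF core was found in 0 of the 35, against 3.73% of all promoters. The ETS core was found in 3, those of Ilk and Itga3, against 8.86% of all, the AP-1 site in 4 (7.81% of all) and the TEAD core in 3, those of Itga10, Itgb1 and Vcl (14.7% of all). The CArG box was found in 3 of the 35, those of Vcl, Fermt2 and Itgb6, against 1.63% of all. A match or its absence describes only the letters of this window.

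The collagen-binding subunits did not separate the groups. Itga1 read 93.7, 101 and 167 CPM in controls 1, 2 and 3 and 106, 116 and 125 CPM in Axin1 libraries 1, 2 and 3. Control 3 stood above every other library, and the log2 fold change of -0.06 (95% confidence interval -0.56 to 0.44, edgeR adjusted p 0.923) became 0.23 without it, at an adjusted p of 0.356. Itga2 ranged from 52.6 to 77.4 CPM in the controls and from 67.0 to 80.4 CPM in the Axin1 libraries. Itga10 and Itga11 had 70 and 96 reads in all.

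Summed per length, the 12 alpha subunits that can pair with Itgb1 came to 150.0, 160 and 189 RPKM in controls 1, 2 and 3 and to 201, 205 and 197 RPKM in Axin1 libraries 1, 2 and 3. Divided by Itgb1, the sum was 1.62, 1.45 and 2.04 in the controls and 1.99, 1.83 and 2.06 in the Axin1 libraries. The groups overlapped through control 3, and the difference of means of 0.26 had an exact permutation p of 0.3, two-sided, where 3 against 3 libraries cannot go below 0.1. The ratio of laminin-binding to RGD-binding alpha subunits was 1.11, 1.08 and 0.711 in the controls and 0.792, 0.787 and 0.666 in the Axin1 libraries. Control 3 again lay among the Axin1 libraries (difference -0.22, exact permutation p 0.3, two-sided, and 0.3 with Benjamini-Hochberg adjustment over the 2 ratios). Without control 3 the differences were 0.43 and -0.35. Within this pool Itga5 made up 24.0% to 31.5% in the controls and 35.1% to 37.2% in the Axin1 libraries, while Itga4 made up 9.06% to 10.7% and 4.17% to 5.70%.

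**Figure D3:**
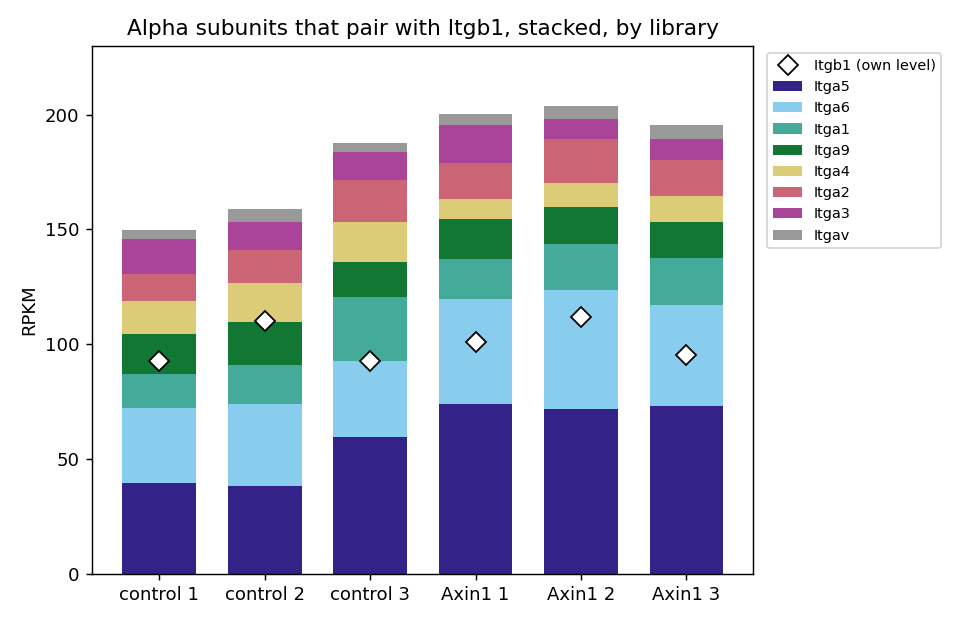
RPKM of the 8 alpha subunits of the Itgb1 pool with the highest levels, stacked for each of the 6 libraries, with the level of Itgb1 itself as a white diamond. The Itga5 segment is 71.8 to 74.0 RPKM in the Axin1 libraries and 38.4 to 59.7 RPKM in the controls, and the diamond stays between 92.6 and 112 RPKM.

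Of the 4 genes of the FAK, paxillin, p130Cas and Src group, 3 had groups without overlap, as did 23.8% of all tested genes, and 1 of the 3, Ptk2, differed little in size. Pxn encodes paxillin, a scaffold that FAK and Src phosphorylate. It read 69.6, 60.0 and 74.0 CPM in controls 1, 2 and 3 and 123, 95.9 and 108 CPM in Axin1 libraries 1, 2 and 3. The groups were well apart, with a 1.604-fold higher mean in the Axin1 libraries (log2 0.68, SE 0.14, 95% confidence interval 0.37 to 0.99, edgeR adjusted p 0.0634). Pxn passed the threshold without control 3 (edgeR adjusted p 0.0303), in DESeq2 (0.00257) and with genes of few reads kept (0.0412), and had an adjusted p of 0.113 to 0.241 in the other 5 fits without 1 library.

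Src, the founding member of the Src kinase family, was lower in every Axin1 library. It read 25.1, 24.2 and 30.7 CPM in controls 1, 2 and 3 and 15.9, 16.5 and 16.6 CPM in Axin1 libraries 1, 2 and 3, nearly equal within the second group. The log2 fold change was -0.71 (SE 0.17, 95% confidence interval -1.08 to -0.33, edgeR adjusted p 0.0916, DESeq2 adjusted p 0.0179). Ptk2, which encodes the kinase FAK, hardly differed in size although its groups did not overlap, at 145, 162 and 160 CPM in the controls and 172, 163 and 166 CPM in the Axin1 group (log2 0.10, 95% confidence interval -0.12 to 0.33). Bcar1, which encodes p130Cas, overlapped, with 46.6, 40.9 and 58.0 CPM in the controls and 81.2, 66.1 and 47.9 CPM in the Axin1 group (log2 0.42, edgeR adjusted p 0.352).

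**Figure D4:**
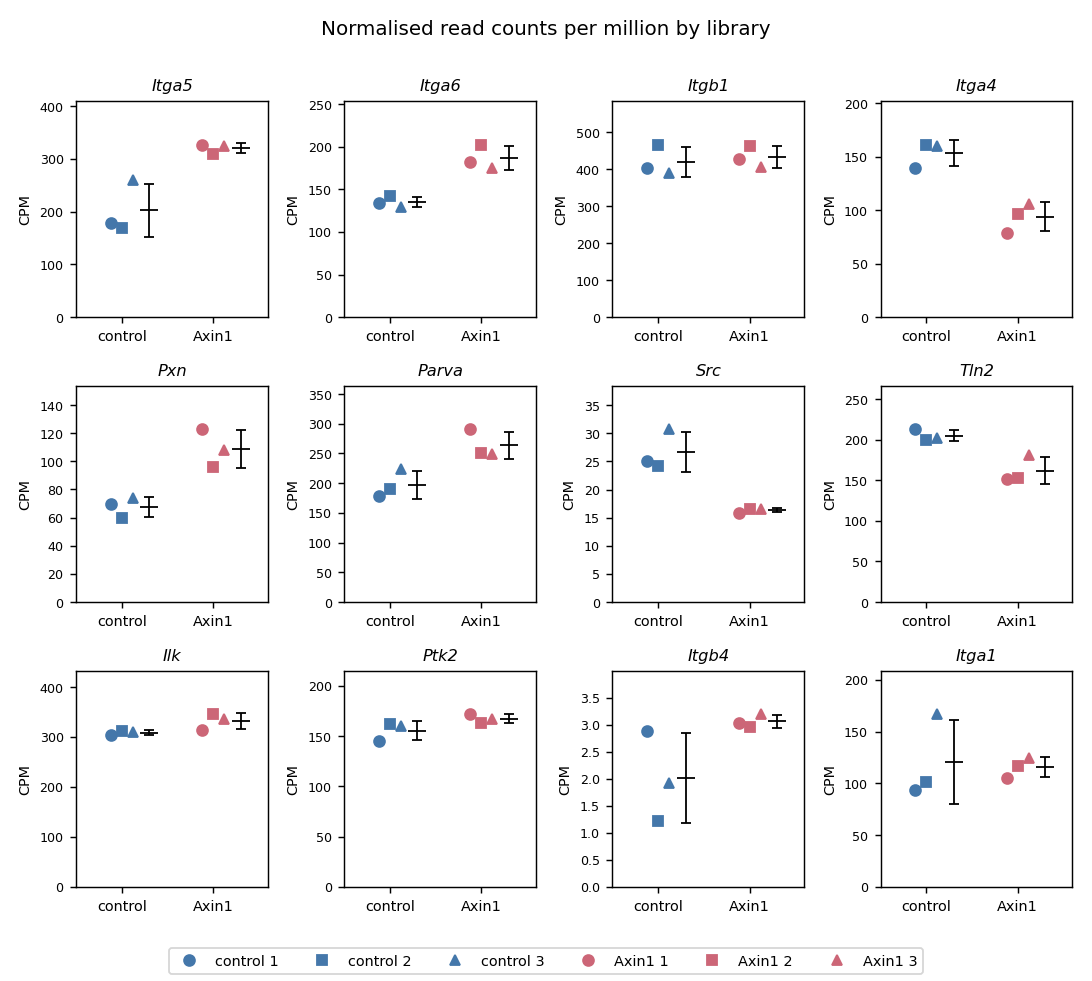
CPM (linear axes from 0) of 12 members in each library, with the mean and SD of each group of 3 beside its points. Itga5, Itga6, Pxn and Parva are higher and Itga4, Src and Tln2 lower in every Axin1 library, while Itgb1 and Itga1 overlap.

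In the ILK-PINCH-parvin complex, which links the beta tail to actin, 2 of 4 genes, Parva and Ilk, had groups without overlap. The share was 23.8% over all tested genes, and neither gene passed the test. Parva read 179, 190 and 223 CPM in controls 1, 2 and 3 and 290.5, 251 and 249 CPM in Axin1 libraries 1, 2 and 3. The log2 fold change was 0.42 (SE 0.12, 95% confidence interval 0.14 to 0.70, edgeR adjusted p 0.145). Ilk, a pseudokinase at the core of the complex, was the most abundant member per length, at 231 ± 7.61 RPKM in the controls and 252 ± 14.9 RPKM in the Axin1 libraries. It read 303, 312 and 309.7 CPM in the controls and 314, 346 and 335 CPM in the Axin1 libraries, a small step without overlap (log2 0.10, 95% confidence interval -0.11 to 0.32, edgeR adjusted p 0.619). Its count is uncertain, since its exons share 76.7% of their bases with Taf10 on the opposite strand in the annotation. Lims1 (PINCH) and Parvb overlapped between groups, with log2 fold changes of 0.13 and 0.15.

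Of the integrin activators, Tln1 (talin 1) read 425, 438 and 500.4 CPM in controls 1, 2 and 3 and 462, 552 and 597 CPM in Axin1 libraries 1, 2 and 3, with overlap (log2 0.24, 95% confidence interval -0.04 to 0.52, edgeR adjusted p 0.373). Its paralogue Tln2 lay lower in each Axin1 library, at 213, 200.2 and 202 CPM in the controls against 151, 153 and 181 CPM (log2 -0.34, SE 0.11, 95% confidence interval -0.59 to -0.09, edgeR adjusted p 0.174). Per length, Tln1 exceeded Tln2 in all 6 libraries, at 47.9 to 68.9 RPKM against 12.4 to 17.0 RPKM. Fermt2, the kindlin of most adherent cells, overlapped (log2 0.02, 95% confidence interval -0.30 to 0.35), and Fermt1, the kindlin of epithelia, had 3 reads in all. Vcl (vinculin), which binds talin and actin, read 275, 327 and 310.0 CPM in controls 1, 2 and 3 and 333, 309 and 431 CPM in Axin1 libraries 1, 2 and 3, also with overlap (log2 0.23, edgeR adjusted p 0.447). Zyx (zyxin), an actin-linked adaptor, overlapped with a log2 fold change of -0.19. Exons of Vcl share 25.5% of their bases with Ap3m1 on the opposite strand.

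Several members mark blood cells rather than endothelium, and these varied widely between libraries. Itgam and Itgal pair with Itgb2 on leukocytes. Itgam read 10.1, 17.5 and 5.70 CPM in controls 1, 2 and 3 and 4.55, 18.3 and 42.4 CPM in Axin1 libraries 1, 2 and 3, and Itgal read 8.84, 11.3 and 11.03 CPM and 3.99, 16.6 and 26.8 CPM. Itgb2 read 46.4, 54.2 and 38.8 CPM and 29.4, 72.3 and 112 CPM. For all 3 genes Axin1 library 1 was the lowest of the 6 libraries and library 3 the highest. The 12 macrophage and microglia markers, all with reads in every library, summed to 506, 900.2 and 473 CPM in the controls and 260, 1321 and 2799 CPM in the Axin1 libraries, with the same lowest and highest library. Itgam overlaps a same-strand gene model over 68.7% of its exon bases, so its count is uncertain.

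Itga2b and Itgb3 form the fibrinogen receptor of platelets, and Itgb3 is also made by endothelium. Itga2b read 129, 119 and 178 CPM in controls 1, 2 and 3 and 63.4, 213 and 356 CPM in Axin1 libraries 1, 2 and 3. Itgb3 read 122, 140.2 and 190 CPM and 81.1, 249 and 344 CPM in the same order. The 2 genes thus ranked the Axin1 libraries alike, and the ratio of their RPKM stayed between 1.30 and 1.75 in all 6 libraries. Fermt3, the kindlin of blood cells, read 254, 248 and 286 CPM and 126, 389 and 494 CPM. The 11 megakaryocyte and platelet markers, all with reads in every library, summed to 1748 to 1801 CPM in the controls and to 812, 2174 and 3134 CPM in Axin1 libraries 1, 2 and 3. Clec1b of that list did not follow the sum, with 324, 277 and 257 CPM in the controls and 202, 169 and 195 CPM in the Axin1 libraries, without overlap (edgeR adjusted p 0.0681). Fold changes of Itgam, Itgal, Itgb2, Itga2b, Itgb3 and Fermt3 had wide intervals (log2 -0.77 to 1.91 for Itgb3, -0.98 to 2.12 for Itga2b) and none passed edgeR's test. Axin1 library 1, the lowest for both marker sums, held the highest Itga5, Pxn and Parva values of the 6 libraries and the lowest Itga4, Src and Tln2 values, while Itga6 was highest in library 2. The groups of these 7 genes did not overlap. Of the other members without overlap, Ptk2 was highest in Axin1 library 1, Ilk in Axin1 library 2 and Itgb4 in Axin1 library 3. The part of the blood cell markers in any of these genes was not tested.

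**Figure D5:**
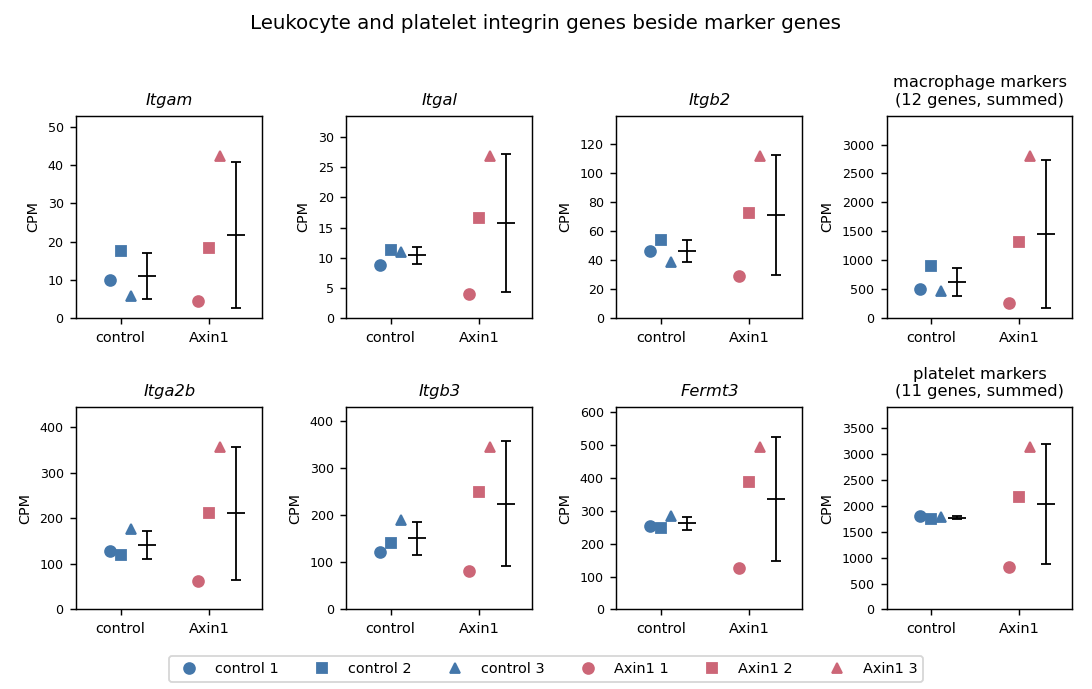
CPM (linear axes from 0) of 3 leukocyte integrin genes and 3 platelet or blood cell genes in each library, with the summed CPM of 12 macrophage and 11 platelet markers in the right column and the mean and SD beside each group of 3. In all 8 panels Axin1 library 1 is lowest and Axin1 library 3 highest.

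The summed levels of markers of other cells that could enter the sort overlapped between groups. The 12 pericyte and mesenchyme markers summed to 61.6 to 145 CPM in the controls and 126 to 186 CPM in the Axin1 libraries, the 10 neural markers to 177 to 388 CPM and 251 to 275 CPM, and the 7 erythroid markers found to 579 to 2282 CPM and 187 to 2204 CPM. In the pericyte list 10 of 12 fold changes were positive, against 52.5% of all tested genes, with a median log2 value of 0.59. Of the 12, 1 (Kcnj8, lower in the Axin1 libraries) had groups without overlap, against 23.8% of all tested genes. None of the 12 passed the test, and their part in the members' values was not tested. Of the neural markers, Nes alone read 155, 170 and 214 CPM in controls 1, 2 and 3 and 235, 172 and 173 CPM in the Axin1 libraries. Tubb3, Fabp7, Pax6, Sox2, Hes5 and Neurog2 were highest in control 3, with Tubb3 at 106 CPM there and 14.4 to 55.0 CPM elsewhere. Nes, Dcx, Elavl3 and Sox1 were highest in an Axin1 library. The part of neural RNA in the members' values was not tested. Sox2, Hes5 and Neurog2 had no read in control 1, Neurog2 and Sox1 none in control 2, and Hes5 none in Axin1 library 1. The erythroid marker Klf1 had none in control 1.

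Beyond the members, 53 further genes of the adhesion machinery were read from the same fit. Of 51 tested, 1 was called, which rose, where 0.845% of all tested genes were called. Rapgef1, an exchange factor for the integrin-activating GTPase Rap1, averaged 105 ± 7.402 CPM with Axin1 overexpressed against 65.6 ± 2.62 CPM without (log2 0.68, edgeR adjusted p 0.0432). The list's median log2 fold change was 0.16, and 16 of the 51 (31.4%) had groups without overlap, 9 higher and 7 lower, against 23.8% of all tested genes. The tensin gene Tns3 had the next smallest p (log2 0.97, edgeR adjusted p 0.0614). It averaged 20.2 ± 3.13 CPM with Axin1 overexpressed against 10.3 ± 0.81 CPM without. After Tns3 came the alpha-actinin gene Actn4 (log2 0.94, adjusted p 0.147) and the LIM protein gene Csrp1 (log2 -0.67, adjusted p 0.152). The call of Rapgef1 held without control 3 and was lost without control 1, control 2 or Axin1 library 1, 2 or 3, at edgeR adjusted p values of 0.155, 0.208, 0.0874, 0.158 and 0.0763. It was also lost without robust fitting (0.0531) and in all 3 limma fits on RPKM (0.0601 to 0.0983).

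Of 34 integrin ligands tested, 2 fell and 0 rose, where 0.490% of all tested genes were called lower and 0.355% higher. Of the 34 fold changes, 22 were positive and 12 negative, where 52.5% of all tested genes were positive. Agrn (agrin) went from 352 ± 27.0 to 212 ± 18.9 CPM and Fn1 (fibronectin, bound by Itga5 and Itga4 receptors) from 935 ± 104 to 578 ± 49.6 CPM, with log2 fold changes of -0.73 and -0.70 and edgeR adjusted p values of 0.038 and 0.0438. Mfge8, an RGD protein (log2 -0.48, edgeR adjusted p 0.0639), and Edil3, another (0.61, adjusted p 0.174), had the next smallest p. The list's median was 0.12. Both calls held without control 3 and were lost without any other single library, at adjusted p values of 0.0632 to 0.198 for Agrn and 0.077 to 0.198 for Fn1. Fn1 was also not called without robust fitting (0.0585) or in limma on RPKM (0.0601), and in limma over every entry above 0 neither was called (Agrn 0.0945, Fn1 0.112). Whether antisense genes share reads with Fn1, Agrn or Rapgef1 was not checked.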

How the data were processed

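RNA from 6 libraries, 3 per group, was compared. Per the file headers, every library has its own deposited table, where 22958 RefSeq entries each carry a count of reads and an RPKM. Bowtie and build mm9 are named in the submitters' processing notes. The counter and strand setting were not given in the sources used here. Deposited counts, whole numbers, were tested with edgeR 4.0.16 (R 4.3.3; TMM, filterByExpr with a minimum count of 10 and total of 15, robust quasi-likelihood fit, Benjamini-Hochberg adjustment over 12661 genes, threshold 0.05). CPM are TMM-normalised, errors are SD over 3 libraries, and SE is the log2 fold change over the square root of F. The RPKM deposited by the authors served for levels between genes, for ratios and for limma 3.58.1. DESeq2 1.42.0, other scalings, filters, blocks and leaving out each library were alternatives. The model was tested on simulated data. Members and lists were chosen with earlier results of these data known, and each list is given by counts and medians without a test of its own. Values in every library were given at least for Itgb1, Itga1, Itga5, Itga6 and Itgav, members without overlap of groups and the 12 with the smallest p. From the 2 pathway lists, called genes and up to 4 with the smallest p were named. Of 152 list genes, 151 were found, 2 under an older symbol. GENCODE M21 (GRCm38) was used for shared exon bases and for near-identical transcript copies (at least 95% identity over at least 200 bases), not for coordinates. Each library is described as a biological replicate and entered as its own sample. Replicates differed by more than counting noise.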

Additional observations from a re-analysis of the deposited data

How the results depend on the processing

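The number of members called was 0 with edgeR, 0 under RLE and upper-quartile scaling, without robust fitting and in 3 limma fits on RPKM, 2 without the count filter (Itga4 and Pxn) and 5 with DESeq2. Leaving out 1 library gave 0 to 3. Over all genes the 107 calls became 197 without the filter, 51 without robust fitting, 720 with DESeq2, 4 in limma on all entries above 0, and 0 to 695 when 1 library was left out. With edgeR, 0 genes were called without control 2 or Axin1 library 2, where 1539 and 1733 had an unadjusted p under 0.05. The replicate numbers of the descriptions as a block gave 1 member (Itga4, adjusted p 0.0497) and 105 genes, and ended the call of Rapgef1 (0.0628) but not those of Agrn and Fn1. In the 4 libraries that share title numbers, that number as a block gave 7 members (Itga4, Itga5, Itga6, Pxn, Parva, Tln2 and Bcar1; 20.6%, against 11.9% of all genes) and 1500 genes, with 1 residual degree of freedom. Whether the numbers pair libraries is not stated. Deviations from group means of same-numbered libraries correlated at 0.23, 0.15 and -0.02. Control 2 correlated more with Axin1 library 3 (0.17) than with Axin1 library 2, and libraries 3 did not correlate best with each other. The sign of the log2 fold change of Itgb1 changed without control 3 (-0.0197) and without Axin1 library 2 (-0.0114), with a range of -0.0197 to 0.126 when 1 library was left out. That of Itga1 changed without control 3 (0.233, range -0.217 to 0.233), in the title-number block (0.18) and in limma with a pseudocount of 0.1 (1.46e-04). The cause was not tested. The ratio differences kept their sign in every alternative run, from 0.13 to 0.43 and from -0.35 to -0.15. Depth limits the members under 200 reads.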
